A study of Mus musculus with 6 samples.

Results

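The genes that encode the enzymes that write and erase methyl groups on DNA and on histone lysines, and those that remove acetyl groups from histones, were followed in Kir2.1-OE and control cochleae. The genes were taken by name: symbols starting with Kmt, Setd, Kdm, Hdac or Dnmt followed by a number or letter, together with Tet1, Tet2 and Tet3. Kdm5c, Kdm5d and Kdm6a were left out. Of the 24411 gene symbols with values, 50 met the rule, and 48 of these had enough reads to be tested among 15303 genes. Dnmt3l, a cofactor of de novo methylation without catalytic activity of its own, had 9 reads over all libraries and Dnmt3aos, an RNA antisense to Dnmt3a, had 3, so neither was tested.

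RNA came from the sensory epithelium of the cochlea (organ of Corti) of C57BL/6N mice at P9, either Kir2.1-OE (Otof rtTA+/−; Kir2.1+/−) or littermate controls heterozygous for Otof rtTA and without the Kir2.1 transgene. In Kir2.1-OE mice the Otof promoter drives the doxycycline-dependent activator rtTA, which switches on Kir2.1, an inwardly rectifying K+ channel, mainly in inner hair cells (IHCs). Mice of both genotypes carry the rtTA allele. DOX (0.5 mg/ml) reached both through their mothers, whose water contained it during pregnancy and nursing. Pups received it directly only once weaned. Each genotype has 3 libraries, each from a pool of 8 cochleae of 4 mice, so the pool is the replicate and n is 3 throughout.

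The dissected tissue holds supporting cells, nerve fibres, glia and some bone and cartilage beside the hair cells, whereas Otof marks a small part of its cells. In such bulk samples, fewer cells of a type and less RNA per cell cannot be told apart. The transgene checked the labels. Kcnj2, the gene of Kir2.1, had normalized counts of 3612, 3813 and 2213 in the Kir2.1-OE libraries and 236, 228 and 226 in the controls, a log2 fold change of 3.80 (SE 0.20). The Salmon estimates sum to between 35430940 and 41205047 reads per library. Normalized counts are these estimates scaled for library size, and a gene was called higher or lower where the edgeR quasi-likelihood test gave an adjusted p under 0.05 with a fold change above 1.5.

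DNA methyltransferases (Dnmt) place a methyl group on cytosine, mostly at CpG sites, and TET dioxygenases oxidize that group so that it can be removed. Histone lysine methyltransferases of the Kmt2 and Setd families use a SET domain, and the Kdm enzymes take the methyl groups off again, by flavin chemistry in Kdm1a and Kdm1b and by a JmjC domain in most others. Methylation of H3K4 marks promoters and enhancers in use, that of H3K36 the bodies of transcribed genes, and that of H3K9 and H3K27 mostly silent chromatin. Histone deacetylases (Hdac) remove the acetyl groups that acetyltransferases such as Ep300 and Crebbp add. In the cochlea, DNA methylation, H3K4 and H3K27 methylation and histone acetylation are known to bear on the maturation of hair cells and on the loss of the ability of supporting cells to replace them.

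Of the 48 genes tested, 19 were called higher in Kir2.1-OE and 0 lower, where 15.5% of all genes tested were called higher and 5.08% lower. The median log2 fold change was 0.37 over the 48 genes and 0.01 over all genes. In 32 of the 48 every Kir2.1-OE library lay above every control, against 31.7% of all genes, and in 5 every Kir2.1-OE library lay below, against 29.9%. The remaining 11 overlapped. Of the 19, 8 (Dnmt1, Dnmt3a, Tet1, Tet2, Tet3, Hdac4, Setd2 and Setd5) had been named before as higher in these same libraries and are not independent evidence of a direction. Without them 11 of 40 were called higher, with a median of 0.22, and with offsets for transcript length and GC content 3 of 40, with a median of −0.04. The genes called higher were Tet1, Tet2, Tet3, Dnmt1, Dnmt3a, the 6 H3K4 writers of the Kmt2 and Setd1 types, Setd2, Kmt2e, Setd5, Setd7, Kdm6b, Kdm2a, Kdm3b and Hdac4. The log2 fold changes ran from −0.67 for Setd4 to 1.85 for Tet2. Most of the calls were on the genes with long transcripts, and a length trend ran through all genes, so that the main fold changes are followed below by their values with these offsets. With them 6 of the 48 were called higher, namely Tet1, Tet2, Kmt2a, Kmt2c, Setd2 and Kmt2e, and 0 lower, where 6.44% of all genes were called higher and 3.4% lower, and the median over the 48 fell to 0.09.

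**Figure D1:**
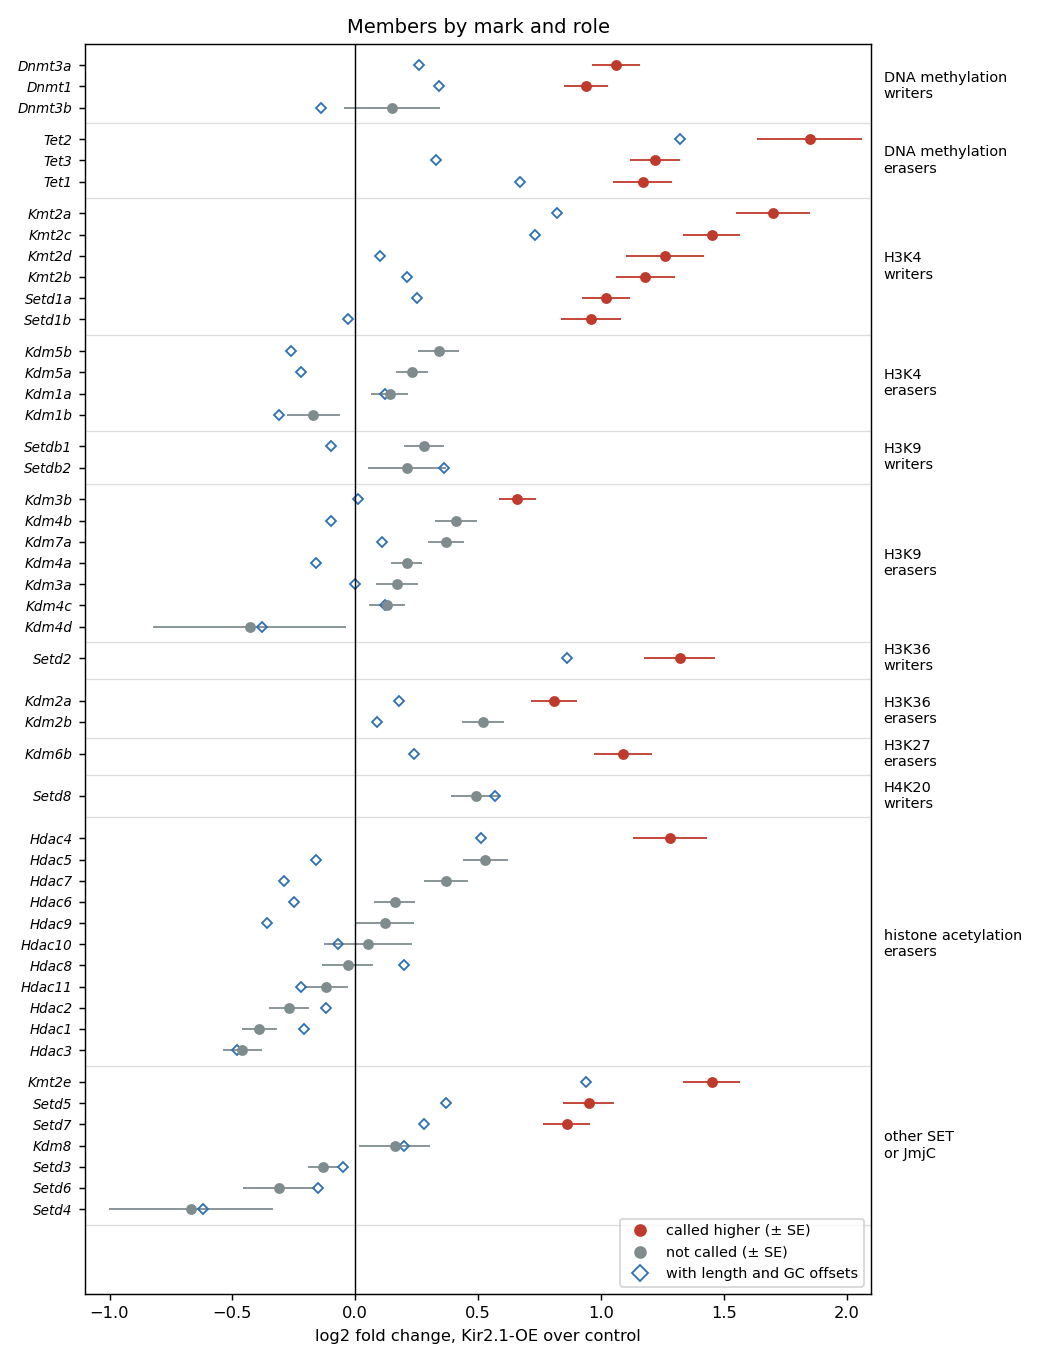
Log2 fold change of Kir2.1-OE over control for the 48 genes tested, grouped by mark and role, as filled circles with SE (red, called higher, grey, not called), and with length and GC offsets as open diamonds. The H3K4 writers and the Tet genes lie at 0.96 or above without offsets, the H3K4 erasers at 0.34 or below, and with offsets 6 genes were called higher.

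Both maintenance and removal of DNA methylation were represented among the genes called higher. Tet2 (minus strand of mm10, chr3:133463679-133545139) had the highest fold change of the 48 genes, with normalized counts of 754, 533 and 440.1 in the Kir2.1-OE libraries and 162, 187 and 129 in the controls. The lowest Kir2.1-OE library held more than 2 times the reads of the highest control, and the Kir2.1-OE libraries also differed more among themselves than the controls did. The log2 fold change of Tet2 was 1.85 (SE 0.21, edgeR adjusted p = 0.000233), a fold of 3.6, and it was 1.32 with offsets (adjusted p = 0.00154). Tet1 had counts of 1184, 1075 and 1042 in the Kir2.1-OE libraries and 458, 575 and 429.5 in the controls. Its log2 fold change was 1.17 (SE 0.12), edgeR adjusted p = 0.000166, and with offsets 0.67 (adjusted p = 0.00251). Tet3, the most abundant of the TET genes, had 5612, 4903 and 4324 in the Kir2.1-OE libraries and 2109, 2254 and 2001 in the controls. Its groups stood well apart, with a log2 fold change of 1.22 (SE 0.10), edgeR adjusted p = 0.000123, and 0.33 with offsets, which was not called.

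Dnmt1 copies methylation onto the new strand after DNA replication. It had counts of 2194, 2078 and 1955 in the Kir2.1-OE libraries and 1107, 1180.3 and 967 in the controls, a log2 fold change of 0.94 (SE 0.09, edgeR adjusted p = 0.00015). Dnmt3a, which methylates unmodified DNA, was the most abundant gene of the group, with 13912, 12767 and 11387 in the Kir2.1-OE libraries and 5717, 6748 and 5816 in the controls and a log2 fold change of 1.06 (SE 0.10, edgeR adjusted p = 0.000146). In neither gene did the groups overlap, but with offsets the log2 fold changes were 0.34 for Dnmt1 and 0.26 for Dnmt3a, below the fold threshold. Dnmt3b, the other de novo enzyme, was scarce, with 74.9, 83.9 and 77.2 in the Kir2.1-OE libraries and 71.2, 74.5 and 67.2 in the controls. The log2 fold change was 0.15 (SE 0.19), edgeR adjusted p = 0.552, although the 3 Kir2.1-OE values lay just above the 3 controls. Per length, the 3 methyltransferases summed to 110 to 138 TPM (reads per length, scaled to a common library total) in the Kir2.1-OE libraries and 49.2 to 59.1 in the controls, and the 3 TET genes to 37.1 to 51.2 and 14.3 to 17.2. Most of the first sum was Dnmt3a, at 95.4 ± 12 TPM against 40 ± 4.28 (SD), and most of the second was Tet3, at 33.1 ± 5.25 TPM against 12.4 ± 0.899.

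**Figure D2:**
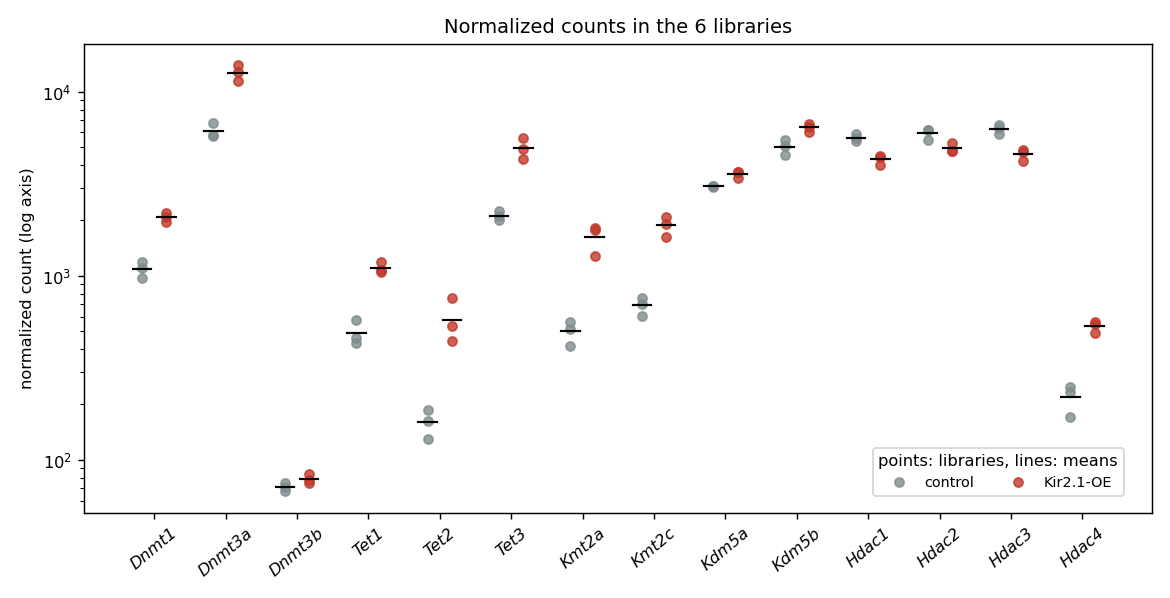
Normalized count on a log axis in each of the 6 libraries (points, red for Kir2.1-OE and grey for control) with the mean of each genotype (line) for 14 of the genes. The groups are apart for each gene drawn, in the upward direction for all but Hdac1, Hdac2 and Hdac3.

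The H3K4 enzymes split by role. The 6 dedicated writers of the Kmt2 and Setd1 types were called higher, with a median log2 fold change of 1.22, and 0 of the 4 erasers, with a median of 0.18. With offsets 2 of the writers were called and the medians were 0.23 and −0.24. Setd7, which monomethylates H3K4 among many other proteins, was grouped with the other SET proteins. Counted as a writer it gave 7 of 7 called, a median of 1.18, and 2 of 7 with a median of 0.25 with offsets. Kmt2a, the founding member of the family (known as MLL1), had counts of 1768, 1818 and 1286 in the Kir2.1-OE libraries and 563, 515 and 417 in the controls. The log2 fold change was 1.70 (SE 0.15), edgeR adjusted p = 0.000135, and 0.82 with offsets (adjusted p = 0.00142). Kmt2c, which methylates H3K4 at enhancers, had 2091, 1918 and 1627 in the Kir2.1-OE libraries and 704, 760.5 and 603 in the controls. It had a log2 fold change of 1.45 (SE 0.12), edgeR adjusted p = 0.00012, and 0.73 with offsets (adjusted p = 0.00101). In both, every Kir2.1-OE library exceeded 2 times the highest control, with Kir2.1-OE replicate 3 the lowest of its genotype.

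The other writers were higher by similar amounts without the offsets and lost their calls with them. The enhancer enzyme Kmt2d had a log2 fold change of 1.26 (SE 0.16, 0.10 with offsets), the MLL2 gene Kmt2b 1.18 (SE 0.12, 0.21 with offsets) and Setd1a, a major source of trimethylated H3K4 at promoters, 1.02 (SE 0.10, 0.25 with offsets). Setd1b, the lowest of the writers, had counts of 2877, 2772 and 2314 in the Kir2.1-OE libraries and 1566, 1385 and 1143 in the controls. The libraries did not overlap, and the log2 fold change was 0.96 (SE 0.12, edgeR adjusted p = 0.000341) but −0.03 with offsets, a change of sign. Kmt2b, Kmt2d and Setd1b are rich in GC as well as long.

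The erasers of H3K4 were more abundant per length than the writers. They summed to 116 to 127 TPM in the controls and 151 to 170 in Kir2.1-OE, whereas the writers summed to 27.9 to 34.9 and 70.8 to 94.2. Kdm5b, the eraser with the largest change, had counts of 6446, 6694 and 6042 in the Kir2.1-OE libraries and 5091, 5459.9 and 4554 in the controls. Its log2 fold change of 0.34 (SE 0.08) passed the p threshold (edgeR adjusted p = 0.0076) but not the fold threshold. Kdm1b, a flavin-dependent demethylase, was at the other end, with 670.2, 780.5 and 676 in the Kir2.1-OE libraries and 846, 696 and 845 in the controls and overlapping groups. Its log2 fold change was −0.17 (SE 0.11, edgeR adjusted p = 0.227), and that of Kdm1a (LSD1), a subunit of the CoREST repressor complex, was 0.14 (SE 0.08). Kdm5a, named here after its values were seen, had 3663, 3680.4 and 3411 in the Kir2.1-OE libraries and 3069, 3073 and 3049.6 in the controls, a log2 fold change of 0.23 (SE 0.06, edgeR adjusted p = 0.0155). With offsets the 2 Kdm5 genes lay below 0, at −0.22 for Kdm5a (adjusted p = 0.0205) and −0.26 for Kdm5b (adjusted p = 0.0209). The median transcript length was 11912 nt for the 6 H3K4 writers and 6850.5 nt for the 4 erasers. Single genes depart from this order. The Kdm5a transcript of 10944 nt is longer than those of Kmt2b (8469 nt) and Setd1b (8857 nt), and that of Kdm5b, at 8714 nt, lies between them. These genes differ in GC content, at 43.3% for Kdm5a and 47.6% for Kdm5b against 59.1% for Kmt2b and 59% for Setd1b. Within each library the log2 ratio of Kmt2c to Kdm5a was −0.81, −0.94 and −1.07 in Kir2.1-OE and −2.12, −2.01 and −2.34 in the controls, a difference of 1.22. That of Kmt2b to Kdm5b was −1.39, −1.56 and −1.74 against −2.36, −2.41 and −2.41, a difference of 0.83. These pairs were also chosen after their values were seen and are a description with no test.

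The promoters of H3K4 writers that were called higher and of erasers that were not are shown because both kinds are CpG-rich. RefSeq windows (build GRCm38.p6) from 250 bases before to 50 after the start of transcription, taken at the start farthest upstream of each gene, were matched for 39 of the 50 genes. The median number of CpG sites per window was 22 in these and 7 over 27025 RefSeq genes, and it was 35.5 for the 4 H3K4 writers matched and 26 for the 3 erasers. A GC box (GGGCGG, on either strand) was present in 26 of the 39 windows and in 35.9% of all. For both measures the RefSeq set was not limited to genes tested in this tissue, so it is not matched to the members in expression. The 150 bases just before the start are printed from 5′ to 3′ with the CpG sites in capitals. They lie at chr9:44881290-44881439, minus strand (Kmt2a), chr5:25498784-25498933, minus strand (Kmt2c), chr4:136602724-136602873, minus strand (Kdm1a) and chr1:134560028-134560177, plus strand (Kdm5b), and they hold 19, 32, 17 and 11 CpG sites.
Kmt2a: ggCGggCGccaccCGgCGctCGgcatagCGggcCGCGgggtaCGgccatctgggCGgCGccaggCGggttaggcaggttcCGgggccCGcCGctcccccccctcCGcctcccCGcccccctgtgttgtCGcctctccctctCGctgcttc
Kmt2c: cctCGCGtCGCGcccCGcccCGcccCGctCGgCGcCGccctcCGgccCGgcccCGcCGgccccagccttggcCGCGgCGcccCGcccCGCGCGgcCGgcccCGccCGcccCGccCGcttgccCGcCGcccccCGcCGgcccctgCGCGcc
Kdm1a: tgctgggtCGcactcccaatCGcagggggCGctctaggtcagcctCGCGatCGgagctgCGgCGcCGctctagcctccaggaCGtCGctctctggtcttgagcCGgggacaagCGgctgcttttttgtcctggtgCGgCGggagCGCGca
Kdm5b: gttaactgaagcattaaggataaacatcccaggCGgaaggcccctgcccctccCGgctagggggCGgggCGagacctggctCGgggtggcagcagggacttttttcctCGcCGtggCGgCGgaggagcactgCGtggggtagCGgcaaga

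H3K9 showed no such split among the genes of the name rule. Neither of their 2 writers was called, and 1 of the 7 erasers was. The H3K9 writers outside the rule (Suv39h1, Suv39h2, Ehmt1 and Ehmt2) were not called either. Their log2 fold changes ran from −0.36 (Suv39h2) to 0.4 (Ehmt1). On the eraser side, the JmjC genes Jmjd1c, of the Kdm3 family, and Phf2 also lie outside the rule. Both were called higher, at log2 fold changes of 1.36 and 0.97. With offsets Jmjd1c was still called, at 0.93, and Phf2 was not, at 0.35. Setdb1, which silences retroelements, had counts of 1938, 1995 and 1982 in the Kir2.1-OE libraries and 1657, 1772 and 1454 in the controls, apart by a log2 fold change of only 0.28 (SE 0.08, edgeR adjusted p = 0.0198). Setdb2 had 322, 246 and 367 in the Kir2.1-OE libraries and 264, 288 and 258 in the controls, with overlapping groups and a log2 fold change of 0.21 (SE 0.16). Among the erasers Kdm3b was the one called, with 3701, 3323 and 3309 in the Kir2.1-OE libraries and 2111, 2321 and 2117 in the controls. Its log2 fold change of 0.66 (SE 0.08, edgeR adjusted p = 0.000226) was the smallest of the 19 called and was 0.01 with offsets. At the low end, Kdm4d held few reads, 25.7, 17 and 12.7 in the Kir2.1-OE libraries and 16.1, 26.4 and 32.6 in the controls, and its groups overlapped at a log2 fold change of −0.43 (SE 0.39, edgeR adjusted p = 0.385). The other 5 erasers, Kdm3a, Kdm4a, Kdm4b, Kdm4c and the H3K9 and H3K27 demethylase Kdm7a, had log2 fold changes from 0.13 (Kdm4c) to 0.41 (Kdm4b). With offsets Setdb1, Kdm4a and Kdm4b lay below 0, at −0.10, −0.16 and −0.10.

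The writer of trimethylated H3K36 was among the genes that rose most. Setd2, which travels with elongating RNA polymerase II, had counts of 3113, 2563 and 2189.8 in the Kir2.1-OE libraries and 945, 1244 and 953 in the controls. The groups were well apart, with a log2 fold change of 1.32 (SE 0.14, edgeR adjusted p = 0.000197), and the call held with offsets at 0.86 (adjusted p = 0.00142). The H3K36 erasers were higher by less: Kdm2a had 4865, 4155 and 3871 in the Kir2.1-OE libraries and 2404, 2595 and 2342 in the controls, and Kdm2b 1449, 1245 and 1259.9 in the Kir2.1-OE libraries and 921, 962 and 871 in the controls. Kdm2a was called, at 0.81 (SE 0.09, edgeR adjusted p = 0.000226), and Kdm2b, which also brings a variant Polycomb complex to CpG islands, stayed just under the fold threshold at 0.52 (SE 0.09, edgeR adjusted p = 0.00117). With offsets they were at 0.18 and 0.09.

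For H3K27, Kdm6b (JMJD3) removes the Polycomb mark that Ezh1 and Ezh2 write. Kdm6b had counts of 5783, 5090.4 and 4650.4 in the Kir2.1-OE libraries and 2598, 2651 and 2029 in the controls, with no overlap. The gene was called at a log2 fold change of 1.09 (SE 0.12, edgeR adjusted p = 0.000185), but not with offsets, at 0.24. The 2 writers, which lie outside the name rule, were not called: Ezh1 had a log2 fold change of 0.22 (SE 0.09, edgeR adjusted p = 0.0707) and Ezh2 −0.03 (SE 0.12, edgeR adjusted p = 0.866), where Ezh1 had 1007, 848 and 882 in the Kir2.1-OE libraries and 825, 753 and 770.5 in the controls, and Ezh2 566, 498 and 589 in the Kir2.1-OE libraries and 477, 611 and 596 in the controls. Setd8, the H4K20 monomethyltransferase now named Kmt5a, had 2517, 2361 and 2380.2 in the Kir2.1-OE libraries and 1439.7, 1833 and 1880.0 in the controls. Its transcript is short (2739 nt), the groups did not overlap, and the log2 fold change of 0.49 (SE 0.10, edgeR adjusted p = 0.00319) was below the fold threshold, with 0.57 with offsets.

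Of the 11 histone deacetylases, 1 was called higher and 0 lower. Without offsets the class I genes lay below 0, with a median log2 fold change of −0.33, and the class IIa genes above it, with a median of 0.45, but with offsets the medians were −0.16 and −0.23. The class I enzymes Hdac1, Hdac2 and Hdac3, the catalytic subunits of the Sin3, NuRD, CoREST and NCoR corepressor complexes, were the 3 most abundant of the 50 genes per length in the controls, and each was lower in every Kir2.1-OE library. Hdac3 had counts of 4207, 4818 and 4701 in the Kir2.1-OE libraries and 6621, 5902 and 6380.1 in the controls, a log2 fold change of −0.46 (SE 0.08, edgeR adjusted p = 0.00136). Hdac1 had 4005, 4464 and 4390.1 in the Kir2.1-OE libraries and 5613, 5400.0 and 5878 in the controls, a log2 fold change of −0.39 (SE 0.07, edgeR adjusted p = 0.0019), and Hdac2 was at −0.27 (edgeR adjusted p = 0.0201). These 3 passed the p threshold and missed the fold threshold, and with offsets they were at −0.48 (Hdac3, adjusted p = 0.0028), −0.21 (Hdac1, adjusted p = 0.0419) and −0.12 (Hdac2, adjusted p = 0.229). Hdac8, the X-linked class I enzyme, overlapped between genotypes (log2 fold change −0.03, and 0.20 with offsets).

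Hdac4, a class IIa enzyme that shuttles between nucleus and cytoplasm and restrains MEF2 factors, was the deacetylase called higher. It had 558, 544 and 487 in the Kir2.1-OE libraries and 249.8, 234 and 171 in the controls. The groups stood well apart, and the log2 fold change was 1.28 (SE 0.15, edgeR adjusted p = 0.000249), with 0.51 with offsets (adjusted p = 0.0177), under the fold threshold. The other class IIa genes were not called, with log2 fold changes of 0.53 for Hdac5, 0.37 for Hdac7 and 0.12 for Hdac9. Omitting Kir2.1-OE replicate 3 put Hdac5 past the fold threshold, at 0.60. With offsets the 3 genes lay below 0, at −0.16, −0.29 and −0.36. The class IIb genes Hdac6, a tubulin deacetylase, and Hdac10 were at 0.16 and 0.05 (−0.25 and −0.07 with offsets), and the class IV gene Hdac11 was at −0.12. Within each library, the mean log2 normalized count of the 4 class IIa genes minus that of the 4 class I genes was −1.05, −1.18 and −1.30 in Kir2.1-OE and −2.09, −1.90 and −2.14 in the controls. This is a shift of 0.87, where the SD within the genotypes was 0.128 and 0.124. With offsets the shift was 0.08, with −1.54, −1.59 and −1.59 against −1.67, −1.59 and −1.69, so it was nearly gone. Per length the class I genes summed to 361 to 380 TPM in Kir2.1-OE and 412 to 422 in the controls, and the class IIa genes to 66.8 to 80.9 and 42.2 to 49.5.

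Among the remaining SET and JmjC proteins, 3 of the 7 tested were called higher. Kmt2e (MLL5), whose SET domain is not known to methylate H3K4, had 4068, 3312 and 3137 in the Kir2.1-OE libraries and 1303, 1418 and 1134 in the controls. It had a log2 fold change of 1.45 (SE 0.12), edgeR adjusted p = 0.00012, and 0.94 with offsets (adjusted p = 0.000728), the second highest of the 48 on that scale after Tet2. Setd5, another protein whose own methyltransferase activity is disputed, was at 0.95 (SE 0.10) and Setd7 at 0.86 (SE 0.10), and both lost the call with offsets (0.37 and 0.28). Setd3, the actin histidine methyltransferase, was at −0.13 (SE 0.06), and Kdm8 at 0.16 (SE 0.15). Setd4 had the lowest fold change of all but few reads, with 31.8, 45 and 24.3 in the Kir2.1-OE libraries and 71.2, 37.3 and 52.9 in the controls. The groups overlapped at a log2 fold change of −0.67 (SE 0.33, edgeR adjusted p = 0.123). Setd6 had 184, 225 and 243 in the Kir2.1-OE libraries and 251, 292 and 267 in the controls, a log2 fold change of −0.31 (SE 0.15, edgeR adjusted p = 0.103).

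Writers and erasers of each mark were set against each other within each library, as the mean log2 normalized count of the writers minus that of the erasers. This difference does not depend on the scaling between libraries. For H3K4 it was −0.29, −0.39 and −0.56 in Kir2.1-OE and −1.44, −1.44 and −1.74 in the controls, a shift of 1.13 toward the writers. For H3K36 it was 0.23, 0.17 and −0.01 against −0.65, −0.35 and −0.58, a shift of 0.66. Both shifts exceeded the spread within either genotype by far, and no library overlapped. For DNA methylation the shift was the other way: −0.37, −0.11 and −0.07 in Kir2.1-OE and 0.51, 0.43 and 0.59 in the controls, or −0.69, toward the TET genes. The mean weighs scarce Dnmt3b like Dnmt3a and scarce Tet2 like Tet3. The ratio of the summed levels per length, which the abundant genes dominate, moved by less, −0.25. For H3K9 the values were −0.75, −0.75 and −0.40 against −0.58, −0.59 and −0.78 and overlapped (shift 0.02). For H3K27, with Ezh1 and Ezh2 as writers and Kdm6b alone as eraser, they were −2.94, −2.97 and −2.69 against −2.05, −1.97 and −1.58. This is a shift of −1.0. Kdm7a, which also acts on H3K27, was counted with the H3K9 erasers only (log2 fold change 0.37, not called). For histone acetylation, with 10 acetyltransferases from outside the name rule against the 11 deacetylases, they were 0.47, 0.40 and 0.34 against −0.02, 0.06 and −0.07, a shift of 0.41 toward the acetyltransferases. Only the H3K27 and acetylation contrasts took writers from outside the name rule. The H3K9 contrast left out the writers Suv39h1, Suv39h2, Ehmt1 and Ehmt2 and, on the eraser side, Jmjd1c and Phf2. The H3K36 contrast left out Ash1l, Nsd1, Whsc1 and Whsc1l1, so the shifts of the marks are not like for like.

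With the length and GC offsets the shift was 0.52 for H3K4, 0.73 for H3K36, −0.62 for DNA methylation, 0.39 for acetylation and −0.17 for H3K27, where the libraries then overlapped, and 0.18 for H3K9, where they no longer did. Over the lysine methylation marks together, 7 of 10 writers and 3 of 14 erasers were called higher without offsets, against 15.5% of all genes, with median log2 fold changes of 1.10 and 0.29. With offsets 3 of the 10 writers and 0 of the 14 erasers were called, against 6.44%, with medians of 0.31 and 0.01. The writers and erasers of one mark are different genes and not replicates, so no p is given, and an exact permutation test of any of these values over 3 against 3 libraries could not go below 0.10.

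**Figure D3:**
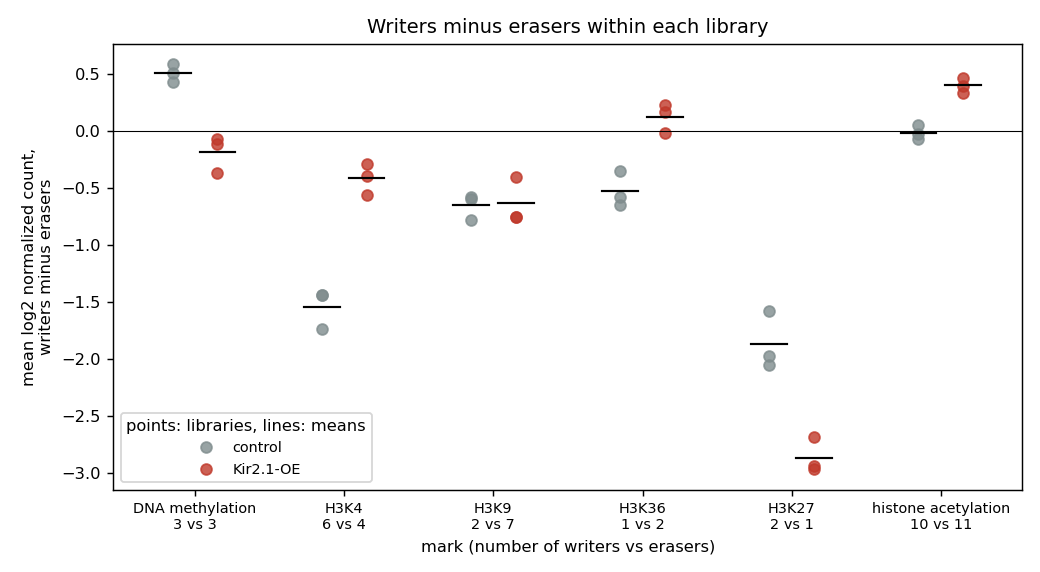
Mean log2 normalized count of the writers minus that of the erasers of each mark in each library (points, red for Kir2.1-OE and grey for control), with the mean of each genotype (line) and the numbers of writers and erasers under each mark. The genotypes are apart for every mark drawn but H3K9, upward for H3K4, H3K36 and acetylation and downward for DNA methylation and H3K27.

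The fold changes followed transcript length. Length here is that of the longest annotated transcript of the gene. Among genes with transcripts under 3000 nt, 0 of 9 members of the list were called higher, against 3.6% of all genes of that length, and among those of 3000 to 5000 nt 0 of 11, against 12.2%. From 5000 to 7000 nt 5 of 10 were called, against 30.4%, and from 7000 nt on 14 of 18, or 77.8%, against 60.3%. Of the 18, all 7 writers and 5 of the 9 erasers (Tet1, Tet2, Tet3, Kdm2a and Hdac4) were called, and the erasers not called were Kdm5a, Kdm5b, Kdm7a and Hdac9. Across genes, which are not independent replicates, the Spearman rho of log2 fold change and length was 0.81 over the 48 and 0.56 over the 15198 genes with a length, and 0.43 over the 48 with offsets. Most of the listed genes that were called higher are thus of a length at which most genes tested were called too. The offsets follow the trend over all genes, technical or not, and a relation with length remained among the 48. The part of length and GC content in the fold changes was not tested.

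**Figure D4:**
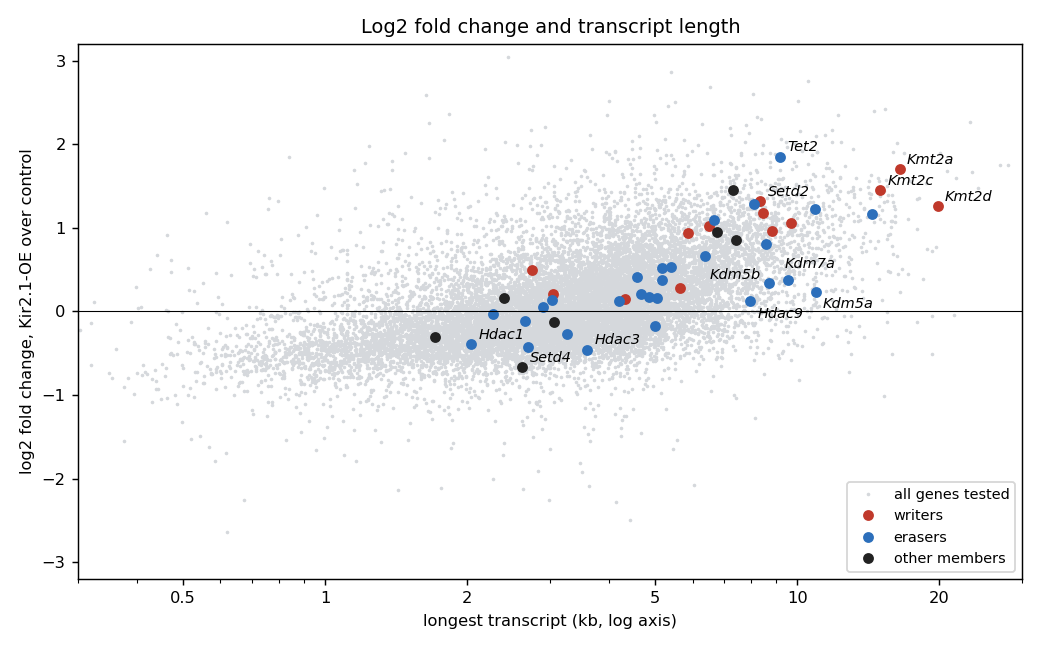
Log2 fold change of Kir2.1-OE over control against the length of the longest transcript on a log axis for all genes tested (grey, 11 of 15198 outside the axes) and for the writers (red), erasers (blue) and other members (black). The longest H3K4 writers lie at 1.26 to 1.70, and of the 9 erasers of 7000 nt and more 5 lie at 0.81 to 1.85 and Kdm5a, Kdm5b, Kdm7a and Hdac9 at 0.12 to 0.37.

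The order of the libraries was shared. Kir2.1-OE replicate 3 was the lowest of its genotype for 19 of the 19 genes called higher and replicate 1 the highest for 18. The median log2 difference of these 19 from the control mean was 1.29 for Kir2.1-OE replicate 1, 1.15 for replicate 2 and 0.95 for replicate 3, and over all genes of 7000 nt and more it was 0.84, 0.74 and 0.67, in the same order. In the controls it was 0.03, 0.13 and −0.16 for the 19 and −0.01, 0.09 and −0.06 for the long genes. No call among the 19 was lost when any 1 library was left out.

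Markers of other cells of the tissue also moved. Over all genes, 15.5% were called higher and 5.08% lower. Spiral ganglion neuron markers were called higher for 7 of 10 genes, and for 7 with offsets. Their summed level was 767, 469 and 1120 TPM across Kir2.1-OE replicates 1 to 3, against 301, 353 and 220 across the controls. Cartilage and bone markers were called higher for 3 of 5 (11600, 12700 and 11100 TPM against 4030, 6280 and 6580). Glial markers were called higher for 1 of 5 (11000 to 14600 against 7160 to 9210) and inner hair cell markers for 1 of 4 (137 to 168 against 99.7 to 111). Outer hair cell markers were called higher for 3 of 4 (Slc26a5, Ikzf2 and Insm1). Their sums overlapped (1890 to 2300 against 1960 to 2560), but most of each sum was Ocm, the marker not called (mean 1960 TPM against 2120). Shared hair cell markers were called higher for 1 of 6, with 1 lower, and supporting cell markers for 2 of 6, with 1 lower. Macrophage markers were called higher for 0 of 5, while erythrocyte markers were called lower for 2 of 3. With offsets, 1 cartilage and bone, 2 glial, 1 outer hair cell and 1 supporting cell marker were called higher. No inner or shared hair cell marker was then called higher, and no marker of these types was called lower. Beside Dnmt1, whose product acts behind the replication fork, 2 of 12 markers of dividing cells were called higher. These were Mki67 at a log2 fold change of 2.52 (SE 0.33) and Top2a at 1.22 (SE 0.20). Pcna (−0.31), Mcm6 (−0.27) and Tyms (−0.4) were lower in every Kir2.1-OE library but missed the fold threshold. Of the 12 log2 fold changes, 6 were above 0 and 6 below, and the summed level of the 12 genes was 161 to 178 TPM against 165 to 169. Most of that sum was Pcna, at a mean of 102 TPM against 110. Mki67 (1.18 against 0.178) and Top2a (4.29 against 1.6) add little to it. Uhrf1, which brings Dnmt1 to newly replicated DNA, had counts of 174, 142 and 183 in the Kir2.1-OE libraries and 164, 172 and 132 in the controls, with overlapping groups and a log2 fold change of 0.09 (SE 0.17). No marker listed was at 0 in every library. The part of the cell makeup in the fold changes was not tested.

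Chromatin genes outside the name rule were counted in the same way. Of 10 acetyltransferases, 4 were called higher and 0 lower, of 17 other lysine methyltransferases and demethylases 6 and 0, and of 17 partners of these complexes 3 and 1, against 15.5% and 5.08% of all genes. With offsets the counts were 2 and 0, 2 and 0, and 0 and 1, against 6.44% and 3.4%. The acetyltransferase Crebbp had counts of 1490.3, 1591 and 1313 in the Kir2.1-OE libraries and 592, 447 and 366 in the controls, a log2 fold change of 1.64 (SE 0.16, edgeR adjusted p = 0.00015) and 0.83 with offsets. Its paralog Ep300 had 3478, 3518 and 2946 in the Kir2.1-OE libraries and 1552, 1516 and 1189 in the controls, a log2 fold change of 1.22 (SE 0.11, edgeR adjusted p = 0.000146) and 0.46 with offsets. In neither gene did the genotypes overlap.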

How the data were processed

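Poly(A) RNA of 3 Kir2.1-OE and 3 control pools was sequenced by the study in paired-end mode and processed with the nf-core RNA pipeline, mapping to mm10 and quantification with Salmon; tool versions, gene annotation and strand setting are not given in the sources used here. The authors deposited expected counts per gene, Salmon estimates that need not be whole, neither scaled for depth nor divided by length. They were rounded here and tested with edgeR 4.0.16 (R 4.3.3): TMM, filterByExpr, quasi-likelihood test and Benjamini-Hochberg adjustment over all genes tested. On simulated data with 200 genes changed by 2-fold, the model called 75% of them and 6 others of 15200 genes. The simulated counts held no trend with length or GC content, so they do not bear on calls that follow such a trend.

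Transcript length and GC content came from the longest GENCODE vM21 transcript, matched to 23379 of the 24411 symbols directly and to 670 through an older symbol. For the offsets, the log2 deviation of every library from the average of all was smoothed by loess (span 0.4) over log length and GC content. TPM was computed on the same lengths. Writer minus eraser differences used log2 of the normalized count plus 0.5. Nothing says that the pools come from separate cohorts, so p-values measure the spread between these pools. The column header of control replicate 1 carries another replicate number than its label, and the label was used. Estimated counts can be split between overlapping or similar genes such as Dnmt3a and Dnmt3aos.

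Values of every library are given for the 6 DNA methylation genes, the highest and lowest fold change of each role group and the 5 highest and 5 lowest fold changes of all. 1 gene of the lists outside the name rule is not reported here. Members and lists were chosen with earlier results of these data known. Alternatives were other scalings, filters and call rules, a replicate block, the offsets, DESeq2 1.42.0, limma-voom (limma 3.58.1) and each library left out.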

Additional observations from a re-analysis of the deposited data

How the results depend on the processing

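The count of 19 genes higher and 0 lower stood under DESeq2's size factors, library size alone, no filter, a minimum of 10 counts in every library, DESeq2's Wald test and limma-voom. It was 18 with upper quartile scaling (without Kdm3b), 17 with glmTreat against a log2 fold change of 0.6 (without Kdm3b and Kdm2a), 19 to 20 with each library left out (Hdac5 was added without Kir2.1-OE replicate 3), and 29 higher and 3 lower with no fold threshold. Upper quartile scaling also moved the share of higher among all calls over all genes from 75.2% to 57.9%. The length and GC offsets left 6 genes higher, also with the replicate block. With them the values of Dnmt3b (−0.14), Setd1b (−0.03, or −0.02 with the block), Kdm5a (−0.22), Kdm5b (−0.26), Setdb1 (−0.10), Kdm4a (−0.16), Kdm4b (−0.10), Hdac5 (−0.16), Hdac6 (−0.25), Hdac7 (−0.29), Hdac9 (−0.36), Hdac10 (−0.07, or −0.06 with the block), Hdac8 (0.20), Ezh1 (0.00), Ezh2 (0.13) and Uhrf1 (−0.08) changed sign or reached 0. Hdac10 was at −0.04 with upper quartile scaling. With each library left out in turn, Hdac8 ranged from −0.09 to 0.03, Hdac10 from −0.09 to 0.18, Ezh2 from −0.13 to 0.04 and Uhrf1 from −0.01 to 0.17. The causes of these changes were not tested.

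The writer minus eraser shift was −0.25 for DNA methylation, 0.96 for H3K4 and 0.49 for acetylation from levels summed per kilobase, 0.52 for H3K4 and −0.17 for H3K27 with offsets, and 0.90 for H3K36 once Kdm4a, Kdm4b and Kdm4c, which also act on that mark, joined its erasers. As alternatives chosen after seeing the data, the H3K4 shift was 1.07 with Setd7 among the writers, and that of class IIa against class I deacetylases went from 0.87 to 0.08 with offsets. The replicate numbers showed no sign of pairing: deviations of same-numbered libraries correlated at −0.11, −0.23 and −0.21. With 3 libraries per genotype, these values cannot show whether pools shared a litter or a batch. The replicate block left 19 genes higher and 0 lower, with no call among the 48 changed, and 2220 higher and 718 lower over all genes. A count of 0 allows a share of up to 8.47e-06% of a library's reads, for counting error only, so the depth limits Dnmt3l, Dnmt3aos, Kdm4d and Setd4 and not the genes called.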

Other observations

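Among the chromatin genes outside the name rule, those that passed the call are named here because they did so. Of the other methyltransferases and demethylases, Ash1l, an H3K36 methyltransferase, had a log2 fold change of 1.43 (0.86 with length and GC offsets), Jmjd1c, a JmjC protein of the Kdm3 family, 1.36 (0.93), Nsd1, an H3K36 dimethyltransferase, 1.15 (0.52), Dot1l, the H3K79 methyltransferase, 1.15 (0.33), Phf2 0.97 (0.35) and Whsc1 (Nsd2) 0.59 (0.25). Ash1l and Jmjd1c were also called with offsets. The H3K9 methyltransferases Suv39h1, Suv39h2, Ehmt1 and Ehmt2 were not called, at −0.18, −0.36, 0.40 and 0.05, and with offsets at −0.17, −0.38, −0.12 and −0.43, which changes the sign of Ehmt1 and Ehmt2.

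Of the acetyltransferases, Kat6a (1.18, 0.56 with offsets) and Kat6b (1.19, 0.59 with offsets) were called beside Crebbp and Ep300, and Crebbp and Kat6b were also called with offsets. Of the complex partners, the corepressor Ncor1, which binds Hdac3, had a log2 fold change of 0.98, Rcor1 (CoREST), which binds Kdm1a, 0.62 and Kansl1 0.68, and none of these 3 was called with offsets. Dpy30, a small subunit shared by the H3K4 methyltransferase complexes, was the gene called lower, at −0.68 (−0.18 with offsets). Its partners Wdr5, Ash2l and Rbbp5 were not called, at −0.22, −0.17 and −0.04 (−0.21, −0.12 and −0.02 with offsets), while the catalytic subunits of the same complexes were called higher without offsets. Rbbp4, a histone chaperone of several corepressor complexes, was not called at −0.50 but was called lower with offsets, at −0.62.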
